A study of Homo sapiens with 4 samples.

Results

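The mitochondrial biogenesis regulators described here are 10 nuclear genes, PPARGC1A, PPARGC1B, NRF1, GABPA, ESRRA, TFAM, TFB1M, TFB2M, POLG and POLG2, of the 26506 gene symbols measured in 2 ovarian cancer cell lines. They were chosen by symbol for their roles in making mitochondria, by a rule that uses no measured value, though with earlier results of these data known. All 10 were found in the expression tables of both HeyC2 and SKOV3 cells. The study asked how the DNA demethylase TET1 changes metabolism in ovarian cancer cells, and RNA sequencing was performed on 4 libraries, 1 for each of HeyC2 control, HeyC2 TET1, SKOV3 control and SKOV3 TET1. HeyC2 and SKOV3 are established human ovarian cancer lines. Cells received 3 µg of the pCMV6/TET1 plasmid, in which TET1 is expressed from a viral promoter (TET1-reprogrammed, genotype given as TET1 overexpressed), or of the empty plasmid (control, genotype given as wild-type). All 4 cultures went through lipofection and selection in 400 µg/ml Geneticin, so each library is a selected population, and whether clones were picked is not given in the sources used here. With 1 library per condition, no difference has a replicate check and no p-value is given. The intervals below are 95% intervals for counting error alone.

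New mitochondria need proteins from both the nuclear genome and the small mitochondrial genome (mtDNA). PGC-1α and PGC-1β, the products of PPARGC1A and PPARGC1B, are coactivators that bind no DNA themselves and work through transcription factors such as NRF1, the ETS factor GABP and the orphan receptor ERRα. These factors act on promoters of nuclear genes for respiratory chain subunits and for the machinery that transcribes and copies mtDNA. TFAM packages mtDNA and, with TFB2M, starts its transcription, TFB1M methylates mitochondrial ribosomal RNA, and POLG with its accessory subunit POLG2 copies mtDNA.

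Promoter sequences are shown for the regulators with a mean of at least 1 FPKM that were past 1.5-fold in either line (ESRRA, TFB2M and POLG2), and for TFB1M as the relative of TFB2M. Each is the 250 bases before a transcription start site in RefSeq on GRCh38.p14, read 5′ to 3′ on the strand of the gene, while the expression files use hg19 (GRCh37). Capitals mark the NRF1 core GCATGCGC (reverse complement GCGCATGC) and the ETS core CGGAAG (reverse complement CTTCCG), both searched on both strands. The windows are chr11:64305274-64305523 (plus strand) for ESRRA, chr6:155314485-155314734 (minus) for TFB1M, chr1:246566262-246566511 (minus) for TFB2M and chr17:64497055-64497304 (minus) for POLG2.
ESRRA: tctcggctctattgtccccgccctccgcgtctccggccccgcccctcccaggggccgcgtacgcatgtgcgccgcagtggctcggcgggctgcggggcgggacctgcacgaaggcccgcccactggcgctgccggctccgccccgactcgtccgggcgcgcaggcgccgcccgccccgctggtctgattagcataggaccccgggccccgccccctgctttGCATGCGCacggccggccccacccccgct
TFB1M: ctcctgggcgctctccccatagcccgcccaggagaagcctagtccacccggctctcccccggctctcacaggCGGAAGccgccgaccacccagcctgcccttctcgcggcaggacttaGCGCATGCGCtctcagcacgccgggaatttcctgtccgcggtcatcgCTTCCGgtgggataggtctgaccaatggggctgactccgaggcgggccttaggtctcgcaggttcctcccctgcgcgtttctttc
TFB2M: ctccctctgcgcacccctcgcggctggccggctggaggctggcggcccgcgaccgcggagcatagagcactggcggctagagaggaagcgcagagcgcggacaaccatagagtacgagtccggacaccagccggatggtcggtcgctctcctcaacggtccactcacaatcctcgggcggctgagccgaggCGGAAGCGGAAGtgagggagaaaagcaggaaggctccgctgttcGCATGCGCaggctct
POLG2: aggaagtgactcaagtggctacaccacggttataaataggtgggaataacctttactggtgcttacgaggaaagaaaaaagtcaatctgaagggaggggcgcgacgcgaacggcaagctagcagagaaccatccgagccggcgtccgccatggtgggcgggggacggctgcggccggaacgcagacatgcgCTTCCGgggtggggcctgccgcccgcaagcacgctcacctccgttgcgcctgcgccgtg
With the base just before the start counted as -1, the NRF1 core of ESRRA lay at -29 to -22. In TFB1M it was read on both strands of an overlapping stretch, at -132 to -123, with an ETS core on each side. TFB2M had 2 adjacent ETS cores, at -59 to -48, and an NRF1 core at -15 to -8. POLG2 had 1 ETS core, at -59 to -54.

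**Figure D1:**
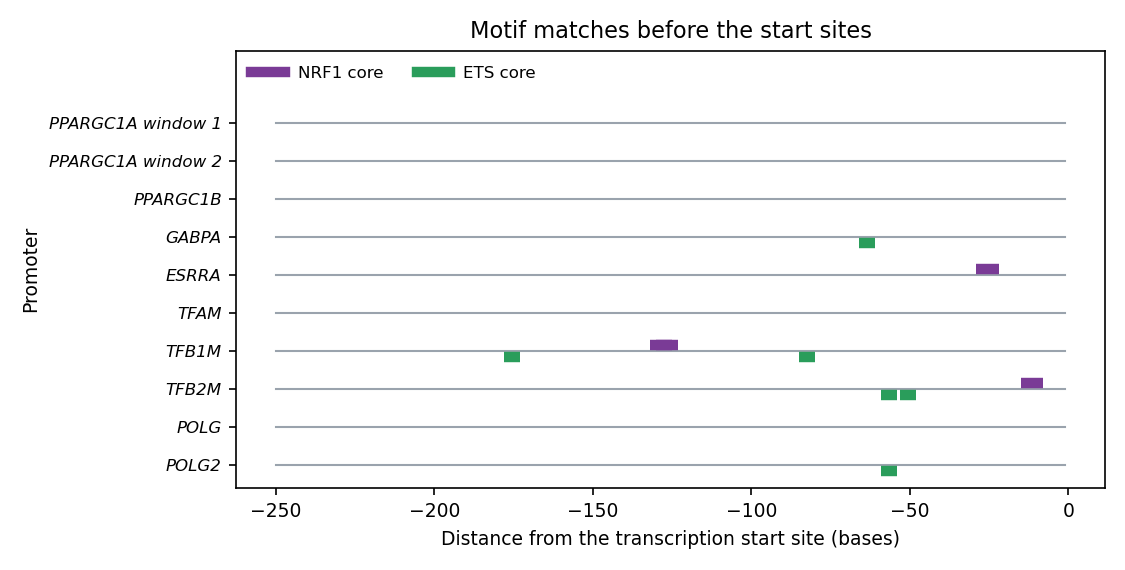
Positions of the NRF1 core (purple) and the ETS core (green) in the 10 promoter windows of 9 regulators; the x axis is the distance in bases from the transcription start site, and each grey line is 1 window of 250 bases. TFB1M and TFB2M are the regulators with both cores.

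Of the 10 regulators, 9 had a window, NRF1 had no entry in the table, and PPARGC1A had 2 windows. The NRF1 core was found in 3 of the 10 windows, against 924 of 35116 promoters of the same length (2.63%). The ETS core was found in 4 windows, the fourth being that of GABPA, against 16.5% of all promoters. TFB1M and TFB2M held both cores, as did 265 promoters in all (0.755%). The windows differed in CpG dinucleotides, the sites where TET1 acts on methylated DNA. ESRRA had 35 CpG and the distal PPARGC1A window 33, whereas the other PPARGC1A window had 4 and that of PPARGC1B had 3, with a median of 11 over all promoters. The PPARGC1B window lies inside the gene and not at its first base. The PPARGC1A window with 4 CpG also lies inside its gene as annotated on GRCh37, and the distal window lies upstream of it. The coactivator windows are thus not at the annotated first bases of these genes. A match to these letters is a description of the sequence, and binding was not measured.

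Expression was deposited as FPKM, fragments divided by transcript length and sequencing depth, so that levels of different genes can be set side by side. About 6625000 to 7343000 fragments per library were estimated from the spacing of the lowest values. The values of each TET1 library had been multiplied by 1 constant, 3.23 in HeyC2 and 1.35 in SKOV3, that set GAPDH to its control level, and this constant was divided out before levels were compared. A change is given as log2((TET1 + 1)/(control + 1)) minus the median of this quantity over all genes with a mean of at least 1 FPKM (relative log2 change). In HeyC2 that median was 0.058, and in SKOV3 it was 0.19. TET1 itself went from 0.20 to 0.519 FPKM in HeyC2 and from 0.43 to 1.80 in SKOV3. These low levels rest on about 14 and 33 fragments in HeyC2 and 29 and 113 in SKOV3. Both lines had KRT8 and KRT18 at 193 FPKM or more in every library. In the HeyC2 control and TET1 libraries the epithelial marker EPCAM was at 0.09 and 0.380 FPKM, and CDH1 was at 0 in both. All 7 epithelial markers were detected in at least 1 library, and their summed level was 1145 and 1893 FPKM in HeyC2 and 2587 and 1089 in SKOV3 (control and TET1). In SKOV3 KRT7 went from 1537 to 22.0 FPKM, KRT19 from 255 to 0.461 and CLDN4 from 24.2 to 14.5 between control and TET1. The other epithelial markers were higher in SKOV3 TET1: KRT8 (560 to 775), KRT18 (193 to 255), EPCAM (15.4 to 16.1) and CDH1 (2.24 to 6.30). In HeyC2 KRT7 went from 290 to 1125 FPKM and KRT8 from 476 to 386. The 6 fibroblast markers in SKOV3 went from 1.04 to 34.7 FPKM in sum, led by COL1A1. The 4 endothelial markers went from 19.6 to 95.4 FPKM in sum in HeyC2, almost all of it CDH5, with PECAM1 and VWF below 1 in every library. The leukocyte markers summed to 1.51 and 3.17 FPKM in HeyC2 and to 2.51 and 2.63 in SKOV3, most of it LYZ, with the T cell marker CD3E at 0 in every library. The part of these differences in the results below was not tested. In bulk RNA, fewer cells of a type and less RNA per cell cannot be told apart.

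The control libraries of the lines were compared first. Relative to the all-gene median, 3 of the 9 regulators with a mean of at least 1 FPKM were past 1.5-fold between the lines in either direction (PPARGC1A, TFB1M and POLG2), where 57.6% of 12488 genes were. ESRRA and POLG had the highest levels in both controls, at 29.6 and 20.1 FPKM in HeyC2 and 29.6 and 23.6 FPKM in SKOV3. In the HeyC2 control POLG2 (9.85 FPKM), TFB1M (9.10), TFAM (7.61), GABPA (7.27) and TFB2M (6.35) followed, and the intervals of neighbours in this order overlapped. NRF1 (3.63 FPKM), PPARGC1B (0.60) and PPARGC1A (0) came last. In the SKOV3 control GABPA (13.3 FPKM), TFB2M (12.0) and TFAM (11.0) formed the next group, then NRF1 (7.01) and POLG2 (6.33), then PPARGC1A (4.29) and TFB1M (4.07). The intervals of neighbours overlapped within each of these groups, and PPARGC1B came last at 0.40 FPKM. The last groups before PPARGC1B were not fully apart. The interval of POLG2 (4.87 to 8.09) also overlapped those of PPARGC1A (3.70 to 4.95) and TFB1M (3.21 to 5.10).
PPARGC1A separated the lines most. It was at 0 FPKM in the HeyC2 control, where 3 fragments would be 0.0667 FPKM, so that its level in the SKOV3 control was at least 64.3-fold higher against this floor, and the lower end of the counting interval of the ratio was 51.8. On the ratio of FPKM, not centred on all genes, TFB1M was 2.24 times as high in HeyC2 as in SKOV3 (interval 1.70 to 2.97) and POLG2 1.56 times (1.13 to 2.16). NRF1 was at 0.518 of its SKOV3 level (0.396 to 0.674), TFB2M at 0.527 (0.393 to 0.703), GABPA at 0.545 (0.468 to 0.634), TFAM at 0.693 (0.591 to 0.812) and POLG at 0.852 (0.764 to 0.949). For ESRRA the interval of the ratio was 0.876 to 1.14. Over all 12488 genes with a mean of at least 1 FPKM in both controls together, the median log2 ratio of HeyC2 to SKOV3 was -0.27, and relative to it the 9 regulators that passed had a median of -0.21, with ESRRA at 0.27 and POLG at 0.046.

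**Figure D2:**
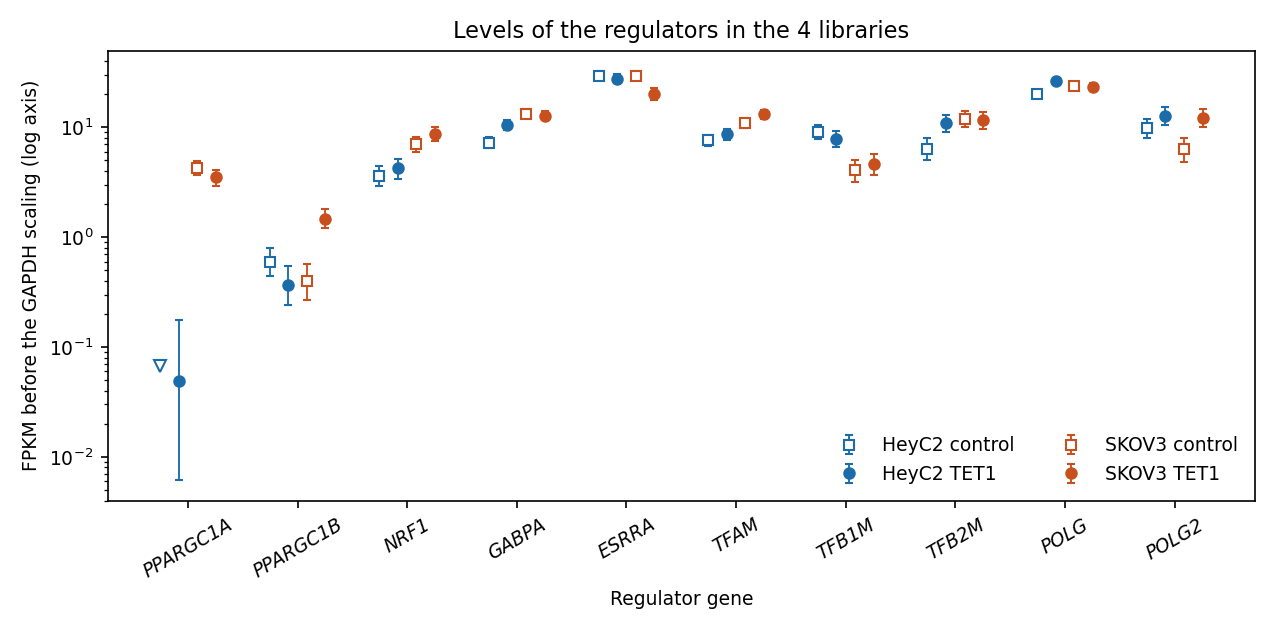
FPKM of each regulator in the 4 libraries, before the GAPDH scaling, on a log axis; open squares are control and filled circles TET1, and bars are 95% counting intervals. The open triangle marks the level of 3 fragments for PPARGC1A in the HeyC2 control, which was at 0.

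The coactivators were the lowest regulators in HeyC2, and in SKOV3 their ratios of TET1 to control had opposite signs. PPARGC1A (chr4:23756664-23905712 on GRCh37) stood at 0 and 0.0495 FPKM in HeyC2 (control, TET1) and at 4.29 and 3.51 FPKM in SKOV3. The HeyC2 TET1 value is about 2 fragments, so both HeyC2 libraries are at or under the floor and no fold is given. In SKOV3 the relative log2 change was -0.42, or -0.50 without a pseudocount (-0.83 to -0.18), from 186 and 142 fragments.
PPARGC1B (chr5:149109861-149234585) was at 0.60 and 0.371 FPKM in HeyC2 (control, TET1) and at 0.40 and 1.48 FPKM in SKOV3, the last being the highest of the 4. These levels rest on 46, 26, 29 and 102 fragments, and PPARGC1B passed the filter of a mean of 1 FPKM in neither line, with a mean just under it in SKOV3. Without a pseudocount its relative log2 ratio was -0.76 in HeyC2 (-1.51 to -0.03) and 1.67 in SKOV3 (1.07 to 2.32). With the pseudocount of 1 the SKOV3 value was 0.63. In SKOV3 TET1, PPARGC1A remained above PPARGC1B, at 3.51 against 1.48 FPKM, and their intervals (2.96 to 4.13 and 1.21 to 1.80) did not overlap. In HeyC2 PPARGC1B was the higher of the pair in both libraries.

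Of the transcription factors, ESRRA was lower in TET1-reprogrammed SKOV3 cells and GABPA differed between the lines. NRF1 (chr7:129251561-129396922), which acts on promoters of many respiratory genes, was at 3.63 and 4.23 FPKM in HeyC2 control and TET1 and at 7.01 and 8.69 in SKOV3. Its relative log2 changes, 0.12 and 0.08, were small, and both counting intervals spanned 0 (-0.28 to 0.59 and -0.21 to 0.40, without a pseudocount).
GABPA (chr21:27106881-27144771), the DNA-binding subunit of GABP, went from 7.27 to 10.5 FPKM in HeyC2 and from 13.3 to 12.8 in SKOV3. The level in SKOV3 thus exceeded that in HeyC2 in both conditions. Its relative log2 change was 0.42 in HeyC2 and -0.25 in SKOV3, and the intervals without a pseudocount, 0.24 to 0.70 and -0.47 to -0.09, lay on opposite sides of 0. The SKOV3 value depends on the reference to all genes, being -0.059 before the GAPDH scaling without it. GABPB1, a partner subunit of GABP, went from 5.6 to 8.21 FPKM in HeyC2 and from 12.3 to 8.25 in SKOV3, relative log2 changes of 0.42 and -0.72. GABPB2, another partner subunit, went from 1.14 to 0.909 FPKM in HeyC2 and from 6.8 to 5.39 in SKOV3. Its relative log2 changes were -0.22 and -0.48. The exons of GABPA overlap those of ATP5J on the opposite strand by 11.6% of their bases, and the relative log2 changes of ATP5J were -0.60 and -0.28.
ESRRA (chr11:64072969-64084215), which encodes ERRα, was at 29.6 and 27.9 FPKM in HeyC2 and at 29.6 and 20.2 in SKOV3. 3 of the 4 libraries were close to each other and SKOV3 TET1 stood below them. The relative log2 change was -0.14 in HeyC2 and -0.72 in SKOV3, and without a pseudocount the SKOV3 interval was -0.99 to -0.55, from 442 and 283 fragments. Before the GAPDH scaling and without the reference to all genes the SKOV3 change was -0.53, which is short of 1.5-fold. TRMT112, whose exons on the opposite strand cover 12.5% of ESRRA exon bases, went from 147 to 77.6 FPKM in SKOV3, a relative log2 change of -1.10, and in HeyC2 it changed by 0.28. Whether transcripts of such pairs were counted by strand is not given in the sources used here, and the part of the overlap in the ESRRA value was not tested.

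Among the genes for mtDNA transcription, TFB2M was higher in HeyC2 TET1, and the counting intervals of TFAM and TFB1M spanned 0 in both lines. TFAM (chr10:60145105-60158980) was at 7.61 and 8.69 FPKM in HeyC2 and at 11.0 and 13.2 in SKOV3. Its relative log2 changes were 0.11 and 0.05, and the intervals spanned 0 (-0.12 to 0.37 and -0.15 to 0.25). TFAM has a processed copy, TFAMP1, in the tables, and reads shared with it could be split.
TFB1M (chr6:155577268-155635627) was at 9.10 and 7.89 FPKM in HeyC2 and at 4.07 and 4.62 in SKOV3, so that both HeyC2 libraries were above both SKOV3 libraries. Its relative log2 changes were -0.24 and -0.04, with intervals of -0.60 to 0.06 and -0.50 to 0.44. Exons of TIAM2 on the opposite strand cover 45.2% of its exon bases, and those of an unnamed gene on the same strand cover 21.1%. TIAM2 was at 0.27 and 0.241 FPKM in HeyC2 and at 4.10 and 2.05 in SKOV3.
TFB2M (chr1:246703863-246729563) was at 6.35 and 10.9 FPKM in HeyC2 (control, TET1) and at 12.0 and 11.7 FPKM in SKOV3. The HeyC2 control was the low library, and the other libraries were close together. The relative log2 change was 0.63 in HeyC2, 0.71 without a pseudocount (0.28 to 1.14), from 76 and 118 fragments. In SKOV3 it was -0.23, and the interval without a pseudocount was -0.61 to 0.11. TFB1M and TFB2M, whose promoters above both hold the NRF1 and ETS cores, were at -0.24 and 0.63 in HeyC2 and at -0.04 and -0.23 in SKOV3. The part of these cores in the changes was not tested. POLRMT, the mitochondrial RNA polymerase, was at 23.2 and 24.3 FPKM in HeyC2 and at 76.3 and 51.4 in SKOV3, relative log2 changes of 0.01 and -0.75.

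Of the subunits of the mtDNA polymerase, POLG2 was higher in SKOV3 TET1. POLG (chr15:89848429-89878092), the catalytic subunit, went from 20.1 to 26.5 FPKM in HeyC2 and from 23.6 to 23.3 in SKOV3. It had the most fragments of all regulators, 636 to 764, and hence the narrowest intervals. The relative log2 change was 0.32 in HeyC2 and -0.21 in SKOV3, and without a pseudocount the intervals were 0.18 to 0.49 and -0.39 to -0.08. Without the reference to all genes the SKOV3 change was -0.018 before the GAPDH scaling and 0.034 with FPKM sums made equal. FANCI on the opposite strand covers 9.66% of POLG exon bases and had relative log2 changes of -0.45 and -1.40. The reading frame gene POLGARF shares 17.5% of the exon bases on the same strand.
POLG2 (chr17:62473902-62493172) was at 9.85 and 12.7 FPKM in HeyC2 (control, TET1) and at 6.33 and 12.1 FPKM in SKOV3. The SKOV3 control was the low library, and the TET1 libraries of both lines were close together. The relative log2 change was 0.65 in SKOV3, 0.72 without a pseudocount (0.27 to 1.19), from 64 and 114 fragments. In HeyC2 it was 0.28, and the interval without a pseudocount was -0.09 to 0.70. TWNK, the mtDNA helicase, was at 3.09 and 4.73 FPKM in HeyC2 and at 5.52 and 6.70 in SKOV3, relative log2 changes of 0.43 and 0.05.

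**Figure D3:**
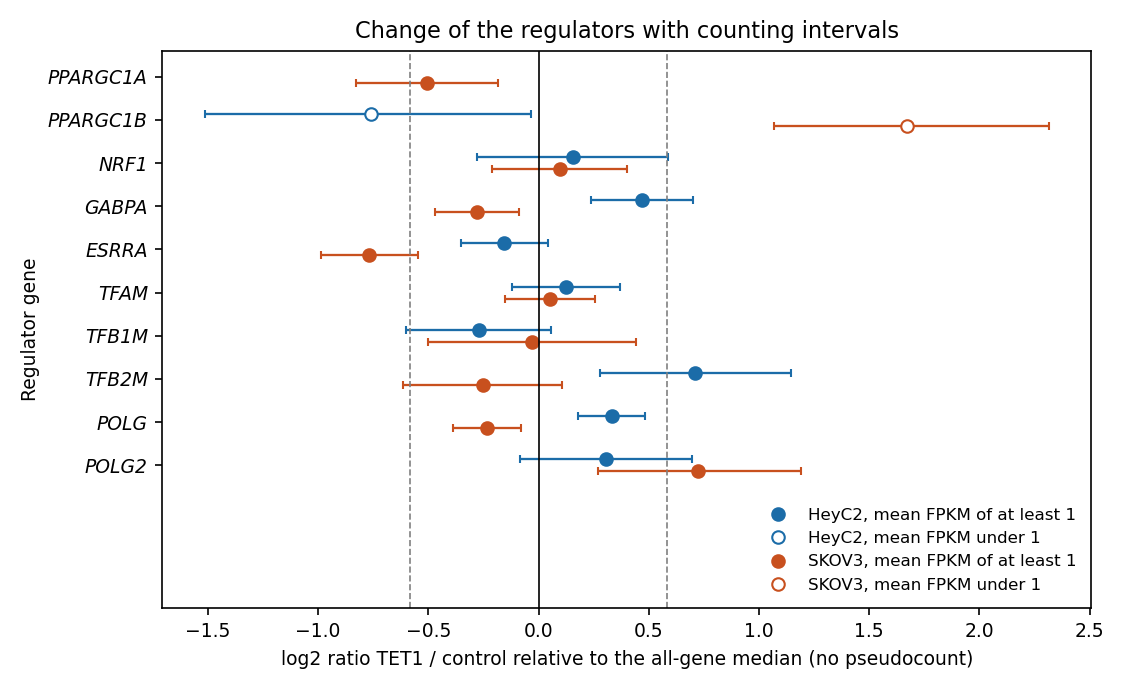
Log2 ratio of TET1 to control for each regulator relative to the all-gene median, without a pseudocount, in HeyC2 (blue) and SKOV3 (orange); bars are 95% counting intervals, dashed lines mark 1.5-fold, and open points did not pass the filter. GABPA and POLG lie above 0 in HeyC2 and below 0 in SKOV3, and PPARGC1A in HeyC2 has no ratio.

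The regulators past 1.5-fold were counted beside the shares over all genes. In HeyC2, 8 of the 10 had a mean of at least 1 FPKM, 1 of them (TFB2M) was at least 1.5-fold higher and 0 were lower, where 12.5% of 11894 genes were higher and 9.17% lower. Of the 10, 9 passed in SKOV3, with 1 higher (POLG2) and 1 lower (ESRRA), beside 20.7% higher and 18.2% lower of 13013 genes. The median relative log2 change of the regulators was 0.20 in HeyC2, with 6 above 0 and 2 below, and -0.21 in SKOV3, with 3 above and 6 below. The middle 50% of all genes ran from -0.28 to 0.30 in HeyC2 and from -0.44 to 0.48 in SKOV3, which is the spread of single genes and not of a median over a group. Among the regulators that passed in HeyC2, the counting interval lay above 0 for 3 of 8 (GABPA, TFB2M and POLG) and below 0 for 0, where it lay above 0 for 27.6% and below 0 for 29.3% of 10973 genes with a known length. Among those that passed in SKOV3 it lay above 0 for 1 of 9 (POLG2) and below 0 for 4 (PPARGC1A, GABPA, ESRRA and POLG), where the shares were 34.7% and 36.4% of 11962 genes. PPARGC1B, below the filter, had its interval below 0 in HeyC2 and above 0 in SKOV3. Intervals on opposite sides of 0 in the lines, as for GABPA, POLG and PPARGC1B, were found for 15.8% of 12424 genes with FPKM above 0 in every library. Of the 8 regulators that passed in both lines, 5 moved in the same direction (62.5%), against 55.1% of 11134 genes.
The direction of the deposited values depends on the GAPDH scaling. As deposited, with no reference to all genes, all 10 regulators were higher in HeyC2 TET1 and 9 of 10 in SKOV3 TET1, ESRRA being the exception. On that scale 8 of 8 in HeyC2 and 3 of 9 in SKOV3 were at least 1.5-fold higher and 0 were lower. The same held for 96.2% (higher) and 0.513% (lower) of all genes in HeyC2 and for 49.7% and 4.48% in SKOV3, and the all-gene medians of the log2 change were 1.63 (HeyC2) and 0.58 (SKOV3).

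**Figure D4:**
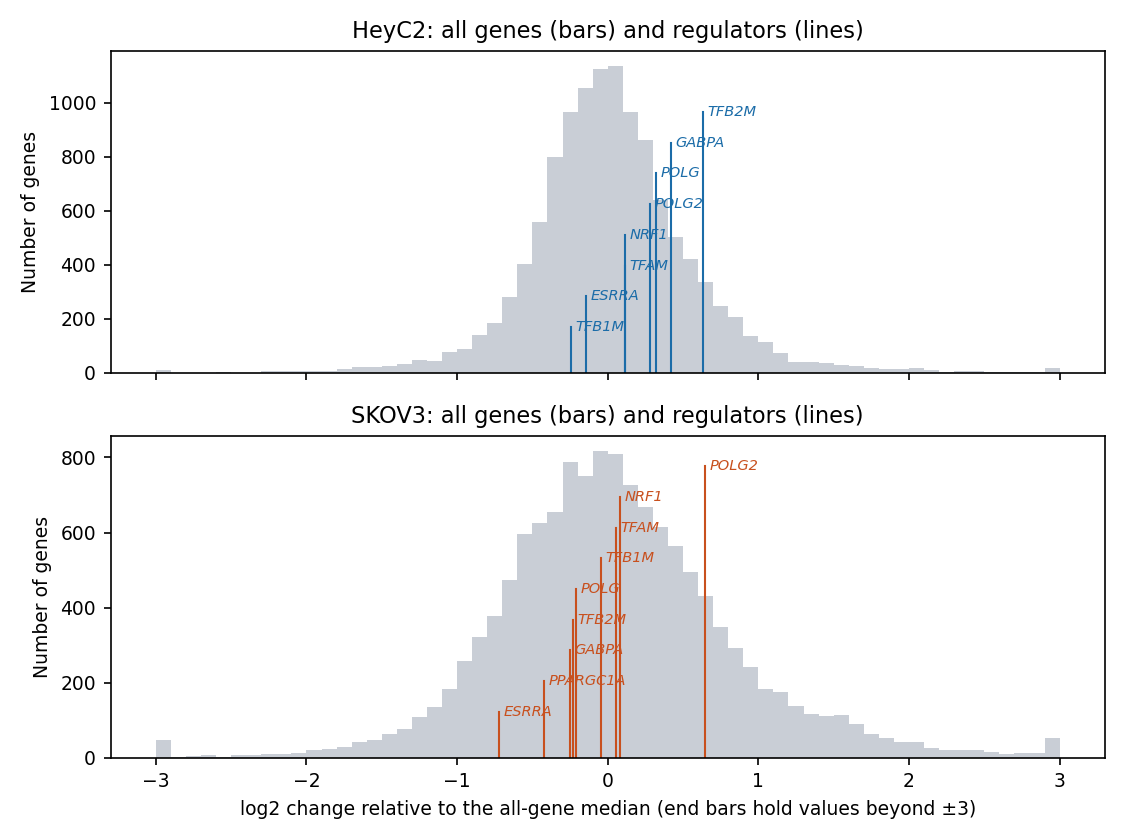
Number of genes (grey bars) by log2 change relative to the all-gene median, in HeyC2 (top) and SKOV3 (bottom), with the regulators that passed the filter as labelled lines whose heights carry no value. The regulators lie within the body of the distribution in both lines, from -0.24 to 0.63 in HeyC2 and from -0.72 to 0.65 in SKOV3.

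The wider pathway was followed in 10 lists of coactivators, upstream regulators, mtDNA maintenance and expression, nuclear target genes, protein import and mitochondrial shape, with 82 genes besides the regulators. Of these, 79 passed the filter in HeyC2, where 5 were at least 1.5-fold higher (6.33%) and 2 lower (2.53%), with a median relative log2 change of -0.11, beside 12.5% and 9.17% of all genes. In SKOV3, 80 passed, 5 were higher (6.25%) and 18 lower (22.5%), and the median was -0.25, beside 20.7% and 18.2% of all genes. Without the reference to all genes, before the GAPDH scaling, the counts were 7 higher and 1 lower in HeyC2 and 11 higher and 9 lower in SKOV3, and as deposited 79 and 26 were higher and 0 lower. Before the GAPDH scaling all genes gave shares of 14.5% (higher) and 7.4% (lower) in HeyC2, and of 28.6% and 11.5% in SKOV3. As deposited the all-gene shares were 96.2% (higher) and 0.513% (lower) in HeyC2, and 49.7% and 4.48% in SKOV3.
KAT2A, an acetyltransferase that acts on PGC-1α, was the 1 gene past 1.5-fold in the same direction in both lines, at 13.6 and 26.0 FPKM in HeyC2 and 32.2 and 57.1 in SKOV3, relative log2 changes of 0.83 and 0.61. SDHD, a subunit of complex II, was past it in opposite directions, at 0.63 in HeyC2 and -0.78 in SKOV3. PPARG and PPARA, genes of nuclear receptors for fatty acids, had the highest change of the listed genes in HeyC2 and SKOV3, respectively. PPARG went from 4.53 to 15.5 FPKM in HeyC2 (relative log2 change 1.52, against 0.12 in SKOV3). PPARA went from 1.83 to 7.39 FPKM in SKOV3 (1.38, against 0.09 in HeyC2). NRIP1, a corepressor of nuclear receptors, was also high in HeyC2, from 22.1 to 44.4 FPKM (0.92).
Of the genes for nucleotide supply to mtDNA, TK2, the mitochondrial thymidine kinase, went from 6.83 to 18.3 FPKM in SKOV3 (1.11) and TYMP, which degrades thymidine, from 3.14 to 7.16 (0.79). In HeyC2 they changed by -0.25 and 0.13.
Of the nuclear targets of NRF1, GABP or ERRα, 1 of 17 was higher and 1 lower in HeyC2 (median -0.18), and 0 of 18 were higher and 3 lower in SKOV3 (median -0.15). Below the all-gene median lay 12 of the 17 in HeyC2 and 14 of the 18 in SKOV3. The SKOV3 count depends on the reference to all genes, whose median log2 change was 0.19 before the GAPDH scaling. COX4I1 (-0.16), IDH3A (-0.13), COX5B (-0.13), COX6A1 (-0.13), COX7C (-0.05) and TOMM20 (-0.04) lay less than 0.19 below this median. The others of the 14 lay further below it. Cytochrome c, encoded by CYCS, went from 22.3 to 15.0 FPKM in HeyC2 (-0.60), and COX6C, a subunit of cytochrome c oxidase, from 88.6 to 62.2 (-0.56). In SKOV3 these genes changed by -0.22 and 0.08.
Protein import and folding had the lowest list median in both lines among the lists with more than 2 other genes, -0.28 in HeyC2 with 1 of 13 past 1.5-fold, and -0.51 in SKOV3 with 4 of 13, all lower. LONP1, the matrix protease that degrades TFAM, was the gene past it in HeyC2, from 45.6 to 21.5 FPKM (-1.11), against -0.13 in SKOV3. In SKOV3 HSPE1, the matrix co-chaperonin, went from 161 to 90.2 FPKM (-1.02) and TOMM40, the outer membrane import channel, from 147 to 82.6 (-1.01). MFN2, which fuses mitochondria, went from 52.1 to 30.4 FPKM in SKOV3 (-0.95), and its relative change in HeyC2 was -0.35. MFN1, of the same fusion and fission list, went the other way, from 8.77 to 17.3 FPKM in SKOV3 (0.71), and by 0.50 in HeyC2. In that list of 6 genes, 1 was higher and 1 lower past 1.5-fold in SKOV3, and 0 in HeyC2.

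**Figure D5:**
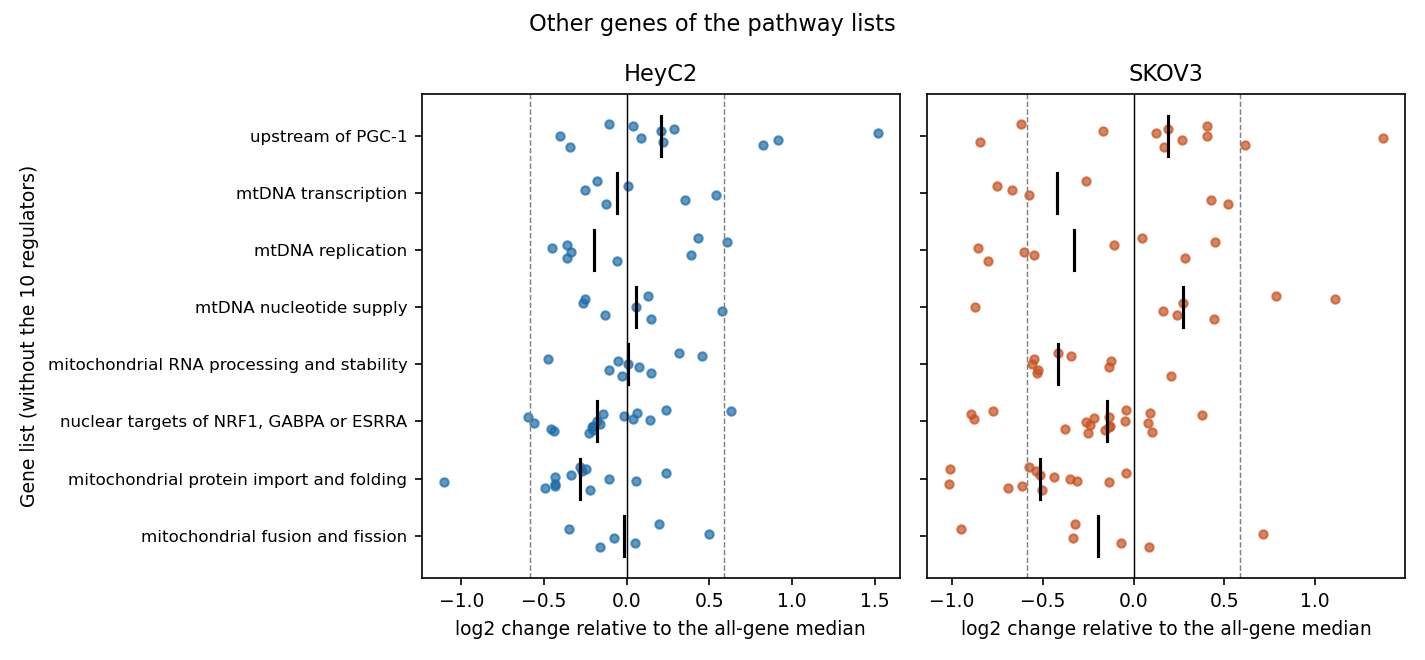
Relative log2 change of the other genes of 8 pathway lists in HeyC2 (left) and SKOV3 (right); each point is 1 gene that passed the filter, the black bar is the list median, and dashed lines mark 1.5-fold. Protein import and folding has the lowest median of the lists shown in both lines.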

How the data were processed

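RNA was sequenced as paired-end TruSeq libraries, and the authors aligned the reads to hg19 with Bowtie2 2.2.6 and quantified genes with RSEM 1.2.17. They deposited FPKM, 1 table per cell line. The annotation, any strand setting and the read totals are not given in the sources used here. The deposited TET1 columns carry 1 further constant each, recovered from the spacing of values below 40 FPKM: 100% of the distinct values lay on a grid of 0.01 FPKM times the constant. It was divided out before the pseudocount of 1 was added, since a pseudocount acts differently on scaled and unscaled low values.

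Genes with a mean of at least 1 FPKM over both libraries of a line were counted, at 1.5-fold relative to the all-gene median. No test was run, since each condition has 1 library. Fragments per gene were estimated from FPKM, depth and transcript length (GENCODE 44 on GRCh37, less 160 bases), and 95% intervals are exact Poisson for levels and conditional binomial for ratios. They cover counting error only. Positions and overlaps came from the same annotation.

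The regulators, the gene lists and the rule for naming genes were chosen with earlier results of these data known. The rule named all regulators, the 3 highest and 3 lowest other list genes in each line that passed in both, and any past 1.5-fold in the same direction in both. GABPB1, GABPB2, POLRMT, TWNK, SDHD, MFN1 and the overlapping genes were added after their values were seen. Alternatives were other pseudocounts, filters, scalings and thresholds. Steps were tested on simulated data. Python 3.11.15, numpy 2.4.6, pandas 2.3.3, scipy 1.17.1 and matplotlib 3.10.9 were used.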

Additional observations from a re-analysis of the deposited data

Results flagged for a closer look

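The counting intervals of 3 regulators lay on opposite sides of 0 in the HeyC2 and SKOV3 cell lines, as they did for 15.8% of 12424 genes. For PPARGC1B the relative log2 ratio of TET1 to control, without a pseudocount, was -0.76 in HeyC2 and 1.67 in SKOV3, a difference of -2.43. For GABPA the ratios were 0.47 and -0.28, a difference of 0.75, and for POLG 0.33 and -0.23, a difference of 0.56. Regulators outside this flag could differ as much between the lines. The difference was 0.96 for TFB2M and 0.61 for ESRRA, where the TFB2M interval in SKOV3 and the ESRRA interval in HeyC2 spanned 0. Each line has 1 library per condition, so the difference between the lines was not tested. PPARGC1B rests on 26 to 102 fragments per library, and its level was 0.40 to 0.60 FPKM in the controls. For GABPA and POLG the SKOV3 side depends on the reference to all genes, being -0.0094 and 0.034 with FPKM sums made equal.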

How the results depend on the processing

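With 1 library per condition no library could be left out. Control and TET1 libraries were compared within each line, and no paired test over the 2 lines was run. For SKOV3 the median of the regulators (-0.21) was -0.11 with no filter on low values, -0.018 before the GAPDH scaling without centring and 0.034 with equal FPKM sums. The 1 regulator lower in SKOV3 became 0 in the last 2 of these settings and stayed 1 with upper quartiles made equal (median -0.11), and the 1 higher became 2 without the filter, with PPARGC1B. On the deposited values without centring the regulators had medians of 1.86 (HeyC2) and 0.40 (SKOV3), with 8 and 3 regulators higher and 0 lower in SKOV3. At 2-fold, 0 were higher in either line and 0 lower in SKOV3. At 1.2-fold, 4 of 8 were higher in HeyC2, beside 3301 of 11894 genes, and 2 of 9 lower in SKOV3, beside 4432 of 13013. With equal FPKM sums and no centring, an alternative added after the data were seen, the regulators' median log2 ratio of the HeyC2 to the SKOV3 control was -0.50. The value of -0.21 is relative to the all-gene median, which was itself -0.27, so the 2 values differ in centring as well as in scaling. A pseudocount of 0.1 or 0.01 left the sign of 19 of 19 regulator changes as it was, and so did the deposited values relative to all genes. Before the GAPDH scaling without centring 18 of 19 kept their sign. With equal FPKM sums and no centring it was 16 of 19, and with the deposited values not centred 11 of 19. Changes of regulators with under 100 fragments in a library have wide intervals, and changes near 1.5-fold cannot be placed on either side of it.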
